A study of Mus musculus with 60 samples.

Results

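RNA from mouse hippocampus was examined for 10 immediate early genes: Fos, Fosb, Junb, Egr1, Egr2, Egr4, Npas4, Nr4a1, Arc and Dusp1. The 10 were taken by name as rows of the deposited gene count table, out of 35976 gene symbols, and all 10 had counts in every one of the 60 libraries. The mutant mice were AppNL-G-F (NLGF), a line in which mutations of familial Alzheimer's disease were knocked into the mouse's own App gene, so that App stays under its own promoter. The comparison mice were wild type (WT). Hippocampus was collected from both genotypes at 3, 8 and 24 weeks, with 5 male and 5 female libraries per genotype and week, and no treatment is given in the labels. Each set of 10 libraries (1 genotype at 1 week) is the unit of comparison here, as the study combined the sexes as replicates and compared the genotypes at each week with sex as a covariate. No label names separate animals, so the tests reflect variation among these libraries, part of which may be technical.

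Immediate early genes are switched on within minutes of a stimulus, without new protein synthesis, when calcium and kinase signals reach transcription factors such as CREB and serum response factor that already sit at their promoters. In the hippocampus they are the usual readout of recent neuronal firing, and most of their products are transcription factors that start a later wave of genes. Their RNAs decay quickly, so their level in frozen tissue also follows what an animal experienced shortly before death. How the mice were handled before dissection is not given in the sources used here. In bulk tissue, fewer cells expressing such a gene and less RNA per cell cannot be told apart.

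The promoters show the element most often tied to this response, the core of the cyclic AMP response element (CRE) that CREB binds, written TGACG, or CGTCA when it lies on the other strand. In the 250 bases before the RefSeq transcription start (GRCm38.p6), the core was present in 17.8% of all 32851 promoter windows and in 19.8% of 27025 genes. Of the 10 members 8 had an entry in that table, and all 8 held it. The full palindrome TGACGTCA, which contains both orientations of the core, was in 1.55% of windows and, among the members, in Dusp1. A match is a description of letters and not a measured binding site. For each of the 8 the match nearest to the start is shown, 5′ to 3′ on the gene's strand, with the core in capitals (in Dusp1 the whole palindrome, in Npas4 both copies of the core). The Npas4 stretch lies inside the first exon of the GENCODE M21 gene model, which starts further upstream.
Fos, chr12:85473812-85473840, plus strand: agttccgcccagTGACGtaggaagtccat
Fosb, chr7:19310089-19310117, minus strand: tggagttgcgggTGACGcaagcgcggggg
Junb, chr8:84978838-84978866, minus strand: gcttcctgacagTGACGcgagccgcctcc
Egr2, chr10:67537802-67537830, plus strand: tatgggcagcgaCGTCAcgggtattgaag
Egr4, chr6:85513682-85513710, minus strand: tttggtcatttaCGTCAcggcgccagggc
Npas4, chr19:4990124-4990152, minus strand: gaCGTCAcgggaTGACGtcggaagtctgg
Nr4a1, chr15:101266794-101266822, plus strand: cccctctccatgCGTCAcggagcgcttaa
Dusp1, chr17:26508596-26508624, minus strand: tagggcgggTGACGTCAccgcccggtcac

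The Fos promoter is the textbook case of this architecture, and its last 150 bases before the start (chr12:85473740-85473889, plus strand, GRCm38.p6) are shown whole, with both TGACG cores and the TATA box in capitals.
Fos promoter: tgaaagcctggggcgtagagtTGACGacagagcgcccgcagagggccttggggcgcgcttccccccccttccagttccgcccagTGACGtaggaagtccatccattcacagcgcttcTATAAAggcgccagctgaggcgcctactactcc
The cores began at positions -129 and -66 from the start, and the TATAAA word, found in 7.59% of all windows, at -33. Among the 8 members with an entry the TATAAA word was found only in Fos. A CArG box, the element of serum response factor, was found in 1.47% of windows and among these 8 only in Egr2, at -72. Arc and Egr1 were not searched, nor were bases more than 250 before the start, so sites there would be missed.

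Depth ranged over the 60 libraries (total gene counts in units of 1000000) between 17.8 and 73.4, and 7 NLGF week 3 libraries (54 to 73.4) stood apart from the other 53 (17.8 to 35.2). Levels below are counts per 1000000 (CPM) over a library total adjusted by the TMM method. App, the gene in which the lines differ, did not pass the test at any week (log2 fold change of NLGF over WT -0.09, -0.21 and -0.10 at weeks 3, 8 and 24). Hippocampal and neuronal markers were present in every library, with Snap25 at 931 to 1840 CPM and Prox1, of dentate granule cells, at 58.3 to 257 CPM. Ttr, of the choroid plexus that borders the hippocampus, ranged between 13.3 and 9760 CPM. In NLGF week 3, 1 male library did not match its sex label, and 1 library titled NLGF week 8 carries an age of 3 weeks in another label field.

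The 10 members differed widely in level. Per kilobase of exon, Arc was the most abundant at 62.9 CPM per kilobase over the 60 libraries, followed by Egr1 at 35.6, Junb at 26.6, Nr4a1 at 20.2 and Egr4 at 15.0 CPM per kilobase. Fos stood at 8.12, Dusp1 at 6.98, Npas4 at 3.55, Fosb at 1.81 and Egr2 at 1.65 CPM per kilobase. All were measured far above the floor of the assay: the lowest raw count of any member in any library was 29 reads, for Egr2.

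**Figure D1:**
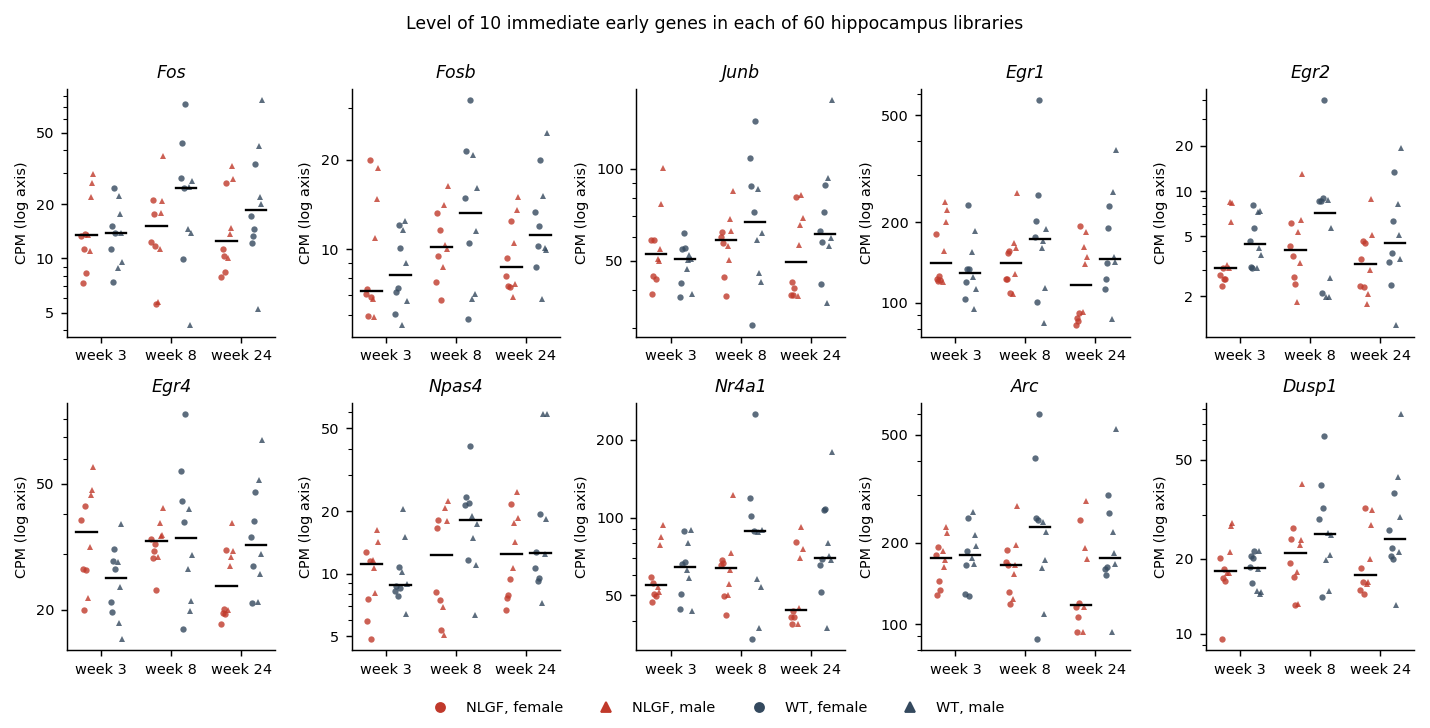
CPM (log axis) of each of the 10 genes in each of 60 libraries, by week, with NLGF in red left of WT in blue, circles for females, triangles for males and a bar at the median of each set of 10. At weeks 8 and 24 the highest NLGF point lies below the highest WT point for all 10 genes, as for Fos at week 24 with up to 32.9 CPM in NLGF against 75.9 CPM in WT.

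Between the genotypes, none of the 10 genes passed the test at any week. The test was edgeR's quasi-likelihood F-test with sex as a covariate, and a gene was called when its p, adjusted by Benjamini-Hochberg over all genes tested, was under 0.05. At week 3 it called 3.78% of the 16605 genes tested and 0 of the 10 members, at week 8 it called 0% of 16494 genes and 0 members, and at week 24 it called 0.878% of 16508 genes and 0 members. At an unadjusted p under 0.05 the members numbered 1 at week 3 (22.0% of all genes), 0 at week 8 (7.83% of all genes) and 4 at week 24 (8.99% of all genes): Egr4 at week 3, and Egr1, Egr4, Nr4a1 and Dusp1 at week 24. DESeq2 also called 0 members at each week, as did voom, run here throughout with sample quality weights. Over all genes DESeq2 called 8.95%, 0.00606% and 1.36% at weeks 3, 8 and 24, and voom 18.8%, 0% and 1%. No member had NLGF and WT libraries that did not overlap at week 3, 8 or 24, a pattern seen in 0.0422%, 0% and 0.315% of genes. The authors' deposited table of called genes, with 2628, 4 and 156 genes at weeks 3, 8 and 24, holds none of the 10.

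The estimates that did not pass the test are given here for their size. At week 8 all 10 members were estimated lower in NLGF than in WT, with a median log2 fold change of -0.45 (range -0.70 to -0.18), where 51.87% of all genes lay below 0. At week 24 all 10 were again estimated lower in NLGF, with a median of -0.54 (range -0.80 to -0.41), where 50.22% of all genes lay below 0. At week 3 only 4 of the 10 were below 0, with a median of 0.05 (range -0.35 to 0.49), where 47.15% of all genes lay below 0. Because the members rise and fall together from library to library, as described further on, these counts of 10 are not 10 separate observations. Leaving out 1 library moved the medians without a member being called: at week 8 the median was -0.18 without WT female 5, with 9 of 10 below 0, and at week 24 it was -0.34 without WT male 5, with 10 of 10 below 0. Over all genes, the fits with 1 library left out called 0 genes at week 8 and 115 to 168 at week 24.

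**Figure D2:**
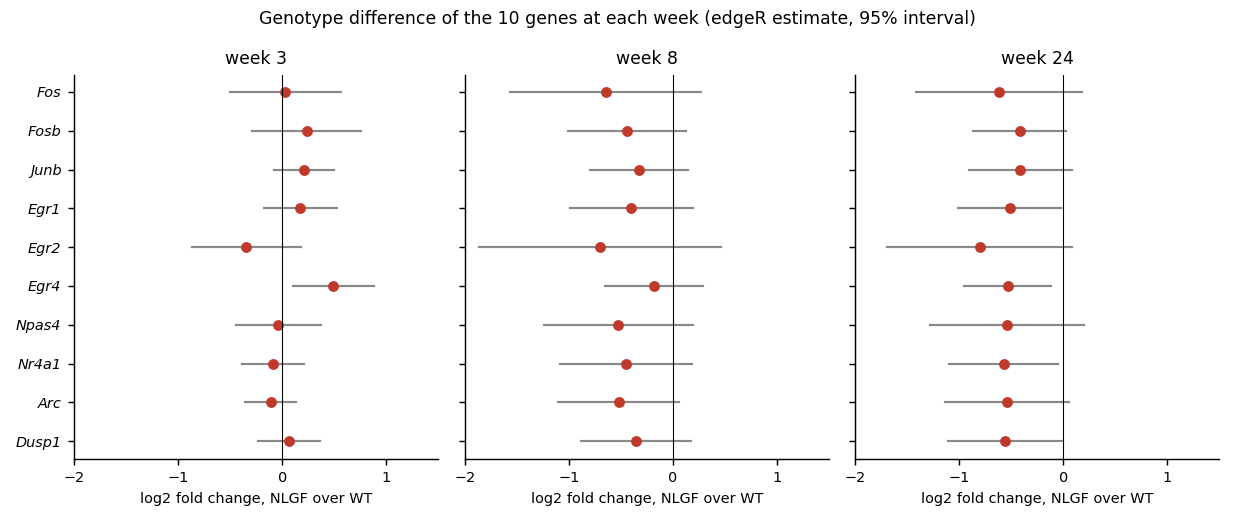
Log2 fold change of NLGF over WT for each of the 10 genes at weeks 3, 8 and 24, with points for the edgeR estimate and bars for its 95% interval (20 libraries per week). All estimates lie left of 0 at weeks 8 and 24, between -0.70 and -0.18 and between -0.80 and -0.41, and all week 8 intervals cross 0.

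The AP-1 subunits come first. Fos (chr12:85473890-85477273, mm10) encodes the partner of JUN in AP-1 and is the classical marker of recently active neurons. At week 3 its lowest, median and highest levels were 7.32, 13.4 and 29.3 CPM in NLGF, against 7.36, 13.8 and 24.7 CPM in WT. The 2 sets covered nearly the same range. At week 8 Fos stood at 5.56, 15.1 and 37.2 CPM in NLGF, against 4.25, 24.7 and 72.4 CPM in WT. In week 24 libraries it stood at 7.85, 12.5 and 32.9 CPM in NLGF, against 5.22, 18.7 and 75.9 CPM in WT. WT libraries thus held both the lowest and the highest Fos at weeks 8 and 24, and the NLGF range lay inside the WT range. The log2 fold change was 0.03 ± 0.254 (SE) at week 3, -0.65 ± 0.436 at week 8 and -0.62 ± 0.38 at week 24, with adjusted p of 0.961, 0.686 and 0.665.

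Fosb (chr7:19302696-19310051) encodes a FOS relative whose truncated form, ΔFosB, outlasts the stimulus. It stood at 5.90, 7.22 and 19.99 CPM (lowest, median, highest) in NLGF at week 3, against 5.53, 8.19 and 12.5 CPM in WT. The highest week 3 value, in NLGF female 4, was not shared by the other members of that library. At week 8 Fosb stood at 6.72, 10.2 and 16.3 CPM in NLGF, against 5.82, 13.2 and 31.7 CPM in WT, and at week 24 at 6.88, 8.73 and 14.95 CPM in NLGF, against 6.81, 11.1 and 24.6 CPM in WT. Its WT range reached further up at both later weeks. On the log2 scale the NLGF over WT difference was -0.44 ± 0.272 at week 8 and -0.42 ± 0.214 at week 24 (adjusted p = 0.584 at week 24).

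Junb (chr8:84974484-84978718), the JUN-family subunit that dimerises with FOS proteins, stood at 38.9, 52.7 and 101 CPM in NLGF at week 3, against 38.1, 50.5 and 61.4 CPM in WT. In week 8 libraries it stood at 38.4, 58.5 and 84.5 CPM in NLGF, against 30.7, 67.0 and 143 CPM in WT. By week 24 it stood at 38.3, 49.5 and 82.2 CPM in NLGF, against 36.2, 60.9 and 168 CPM in WT. As for Fos, the WT ranges were wider at both ends. Its log2 fold change was 0.21 ± 0.138 at week 3, -0.33 ± 0.225 at week 8 and -0.41 ± 0.237 at week 24 (adjusted p = 0.631 at week 24). Junb overlaps Prdx2 on the opposite strand, and the strand setting of the counting is not given in the sources used here, so reads of the 2 genes cannot be told apart where they overlap.

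The zinc finger factors of the Egr family bind GC-rich promoter sites and carry activity into later transcription. Egr1, the most studied of them and required for late phases of hippocampal plasticity, stood at 120.2, 141 and 237 CPM in NLGF at week 3, against 94.6, 129 and 232 CPM in WT. The week 8 levels were 108, 141 and 256 CPM in NLGF, against 84.0, 173 and 569 CPM in WT. The week 24 levels were 82.6, 116 and 193 CPM in NLGF, against 87.3, 146 and 371 CPM in WT. NLGF libraries held the lowest Egr1 of week 24 and WT libraries the highest. On the log2 scale the NLGF over WT difference was 0.17 ± 0.168 at week 3, -0.40 ± 0.283 at week 8 and -0.52 ± 0.237 at week 24 (adjusted p = 0.532 at week 24).

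Egr2 (chr10:67535475-67542188), better known as the myelination factor Krox20 of Schwann cells, was the least abundant member and the most variable. It stood at 2.36, 3.08 and 8.50 CPM in NLGF at week 3, against 3.07, 4.42 and 8.06 CPM in WT. At week 8 it stood at 1.83, 4.03 and 13.1 CPM in NLGF, against 1.98, 7.14 and 40.1 CPM in WT. At week 24 it stood at 1.77, 3.27 and 8.84 CPM in NLGF, against 1.28, 4.49 and 19.5 CPM in WT. The median was lower in NLGF at all 3 weeks while the ranges overlapped throughout. Its log2 fold changes were the most negative of the 10 at every week, -0.35 ± 0.253, -0.70 ± 0.554 and -0.80 ± 0.424 at weeks 3, 8 and 24, with adjusted p of 0.444, 0.723 and 0.594.

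Egr4 (chr6:85511121-85513589), a family member expressed largely in neurons, was the one gene whose estimate pointed up at week 3 and down at week 24 with an unadjusted p under 0.05 each time. At week 3 it stood at 19.9, 35.1 and 56.5 CPM in NLGF, against 16.1, 25.2 and 37.4 CPM in WT. The week 8 levels were 23.1, 32.9 and 42.0 CPM in NLGF, against 17.4, 33.8 and 82.8 CPM in WT. By week 24 it stood at 18.1, 23.8 and 37.7 CPM in NLGF, against 21.0, 31.9 and 68.6 CPM in WT. The upper NLGF libraries of week 3 lay above every WT library of that week, and at week 24 the upper WT libraries lay above every NLGF library. Its mean was 35.8 ± 12.3 CPM in NLGF, against 25.1 ± 6.58 CPM in WT at week 3, and 25.3 ± 6.75 CPM in NLGF, against 36.4 ± 15.2 CPM in WT at week 24 (SD, 10 libraries each). The log2 fold change was 0.49 ± 0.186 (edgeR, adjusted p = 0.128) at week 3, -0.18 ± 0.226 (adjusted p = 0.838) at week 8 and -0.53 ± 0.201 (adjusted p = 0.389) at week 24.

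The Egr4 excess of week 3 lay in the deeply sequenced libraries. Egr4 had a median of 42.4 CPM (26.7 to 56.5) in the 7 deep NLGF libraries, 21.7 CPM (19.9 to 26.9) in the 3 other NLGF libraries and 25.2 CPM in WT. Egr1 divided likewise, with medians of 181, 120 and 129 CPM in the deep NLGF, other NLGF and WT libraries. Arc did not, with medians of 172, 186 and 181 CPM in the same order. With the 3 other NLGF libraries left out, Egr4 was called at week 3 (0.68, adjusted p = 0.00812), an alternative chosen after the data were seen that called 21.5% of all genes. With the 7 deep libraries left out, the median log2 fold change of the 10 members was -0.29 and all 10 lay below 0. In that setting, with 3 NLGF libraries, 0 members and 0% of all 17187 genes were called, against 3.78% of genes in the main fit. All 7 deep libraries are NLGF, so that within them genotype and depth cannot be told apart.

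Npas4 (chr19:4984355-4990316), a bHLH-PAS factor induced by neuronal calcium entry rather than by growth factors, had nearly the same median in both genotypes at week 24. It stood at 4.85, 11.1 and 16.2 CPM in NLGF at week 3, against 6.37, 8.85 and 20.6 CPM in WT. In week 8 libraries it stood at 5.07, 12.4 and 22.4 CPM in NLGF, against 6.31, 18.2 and 41.1 CPM in WT. The week 24 levels were 6.69, 12.4 and 24.8 CPM in NLGF, against 7.20, 12.6 and 58.6 CPM in WT. The week 24 gap lies in 2 WT males, 2 and 5, which held 58.5 and 58.6 CPM. Its log2 fold change was -0.04 ± 0.196, -0.52 ± 0.341 and -0.54 ± 0.352 at weeks 3, 8 and 24 (adjusted p = 0.684 at week 24).

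Nr4a1 (chr15:101254269-101274795), the orphan nuclear receptor Nur77, stood at 47.3, 54.7 and 93.4 CPM in NLGF at week 3, against 43.6, 64.2 and 89.6 CPM in WT. At week 8 it stood at 41.9, 64.0 and 122 CPM in NLGF, against 33.9, 88.5 and 251 CPM in WT. In week 24 libraries it stood at 38.7, 44.1 and 92.3 CPM in NLGF, against 37.6, 70.1 and 179 CPM in WT. The week 24 medians were the furthest apart of its 3 weeks, over ranges that overlapped. On the log2 scale the NLGF over WT difference was -0.09 ± 0.145 at week 3, -0.45 ± 0.305 at week 8 and -0.57 ± 0.25 at week 24 (adjusted p = 0.5 at week 24).

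The remaining pair are effectors rather than transcription factors. Arc (chr15:74669083-74672570) encodes a capsid-forming synaptic protein that removes AMPA receptors from the postsynaptic membrane. Arc stood at 128, 176 and 228 CPM in NLGF at week 3, against 127, 181 and 259 CPM in WT. In week 8 libraries it stood at 118, 165 and 273 CPM in NLGF, against 88.0, 229 and 597 CPM in WT, and at week 24 at 93.3, 118 and 284 CPM in NLGF, against 93.8, 175 and 527 CPM in WT. The week 3 sets covered nearly the same range, and WT libraries reached higher at weeks 8 and 24. Its log2 fold change was -0.11 ± 0.118, -0.52 ± 0.279 and -0.54 ± 0.284 at weeks 3, 8 and 24, with adjusted p of 0.617, 0.641 and 0.594.

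Dusp1 (chr17:26505590-26562128) encodes a phosphatase that switches MAP kinases off again and so limits the response it belongs to. It stood at 9.51, 17.9 and 27.8 CPM in NLGF at week 3, against 14.5, 18.4 and 21.6 CPM in WT. The week 8 levels were 13.1, 21.1 and 39.9 CPM in NLGF, against 14.1, 25.1 and 62.2 CPM in WT. At week 24 it stood at 14.5, 17.2 and 32.1 CPM in NLGF, against 12.99, 24.1 and 76.4 CPM in WT. The WT set was the narrower one at week 3 and the wider one at both later weeks. On the log2 scale the NLGF over WT difference was 0.07 ± 0.142, -0.35 ± 0.253 and -0.56 ± 0.263 at weeks 3, 8 and 24 (adjusted p = 0.551 at week 24). Dusp1 overlaps Ergic1 on the opposite strand, with the same limit as for Junb.

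Whether the genotype difference itself changed between weeks was tested in 1 fit of all 60 libraries. The difference at week 24 minus that at week 3 was below 0 for all 10 members, with a median of -0.62 on the log2 scale, but 0 were called where 1.15% of 17752 genes were. Egr4 came closest, at -1.02 ± 0.303 (adjusted p = 0.0829), and was called without NLGF week 3 female 3 (-1.10, adjusted p = 0.041) or male 1 (-1.09, adjusted p = 0.0314), which are among the 3 NLGF libraries of ordinary depth. Without the 7 deep libraries the Egr4 estimate was -0.39 (adjusted p = 0.704). Junb (-0.61) and Egr1 (-0.69) joined Egr4 at an unadjusted p under 0.05, a level 13.5% of genes reached. For week 8 minus week 3 the median was -0.51 and 0 were called (0.180% of genes), with Egr4 at an unadjusted p under 0.05 (7.26% of genes). For week 24 minus week 8 the median was -0.10, with 0 called (0.310% of genes) and 0 at an unadjusted p under 0.05 (3.85% of genes), and leaving out 1 library moved this median between -0.30 and 0.15. Without the 7 deep libraries the median for week 24 minus week 3 was -0.27 and that for week 8 minus week 3 was -0.17. Single WT libraries moved these medians too, to -0.38 for week 24 minus week 3 without WT week 24 male 5, and to -0.30 for week 8 minus week 3 without WT week 8 female 5.

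Within WT, the estimates of all 10 genes were higher at both later weeks than at week 3. For week 8 over week 3 the log2 fold changes had a median of 0.62 (range 0.40 to 0.91), with 0 called against 7.14% of all genes and 5 members (Fosb, Junb, Egr4, Npas4 and Dusp1) at an unadjusted p under 0.05 (20.1% of genes). For week 24 over week 3 the median was 0.56 (range 0.25 to 1.00), and 1 member passed, against 21.9% of all genes, with the same 5 genes at an unadjusted p under 0.05 (34.3% of genes). That member was Dusp1, which rose by 0.79 ± 0.265 (edgeR, adjusted p = 0.0328), with means of 30.8 ± 18.2 CPM at week 24 and 18.1 ± 2.87 CPM at week 3. The call on Dusp1 was lost without WT week 24 male 5 (0.50, adjusted p = 0.098). It was also lost, with estimates of 0.71 to 0.76 and adjusted p of 0.052 to 0.063, without WT week 24 female 5 or male 2, or WT week 3 female 3, male 1, male 4 or male 5. Npas4 had a larger estimate but missed the threshold, at 1.00 ± 0.374 (adjusted p = 0.0564). It passed, at 0.97 to 1.14 and adjusted p of 0.0369 to 0.0488, without WT week 24 female 1, 3 or 4 or male 1, WT week 3 male 2, or WT week 8 female 5 or male 3. Without WT week 24 male 5 the week 24 over week 3 median was 0.35, with Arc (-0.04) and Egr2 (-0.02) below 0, and voom gave a median of 0.29 with 2 members below 0. For week 24 over week 8 the median was -0.07, with 0 members called (0.279% of genes) and 0 at an unadjusted p under 0.05 (11.5% of genes).

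Within NLGF the median changes with age lay near 0 in the fit of all libraries, but not without the 7 deep week 3 libraries. For week 8 over week 3 the median log2 fold change was 0.07, with 0 members called against 10.4% of genes and 0 at an unadjusted p under 0.05 (23.3% of genes). For week 24 over week 8 it was -0.14, with 0 called against 1.90% of genes, and Egr4 was the 1 member at an unadjusted p under 0.05 (12.2% of genes). For week 24 over week 3 it was -0.07, with 1 called against 25.7% of genes and the same gene the only one at an unadjusted p under 0.05 (36.1% of genes). That gene was Egr4, which fell by 0.49 ± 0.147 on the log2 scale (edgeR, adjusted p = 0.0131). Without the 7 deep week 3 libraries the Egr4 estimate turned to 0.07 (adjusted p = 0.79), so this call rests on them. In the same setting the median of the 10 members was 0.47 for week 8 over week 3, with 1 below 0, and 0.28 for week 24 over week 3, with 2 below 0. The remaining members lay between -0.33 for Egr1, which was called lower without NLGF week 24 female 5 (-0.46, adjusted p = 0.0212), and 0.42 for Npas4.

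The 6 sets, ordered by mean, put WT week 8 highest for 8 members and WT week 24 highest for Npas4 and Dusp1. Without WT week 8 female 5 the WT week 8 mean lay below the WT week 24 mean for all 8. Examples were Arc, at 209.7 CPM (against 222 CPM), and Fos, at 21.2 CPM (against 25.6 CPM). The WT week 24 mean in that comparison kept its own highest library, male 5, which led its set in 10 of 10 members. The order of these 2 sets thus depended on single libraries. The distance between the top and bottom sets was modest: 1.5-fold for Junb and Egr4 and 2.34-fold for Egr2 at the extremes. Neighbours in the order rarely stood apart. Of the 5 steps between neighbouring sets, 1 exceeded the smaller of the 2 SDs for Fos, Junb and Egr4, and 0 did for the other 7 members.

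The genotype estimates were also made in each sex alone. Among week 8 females alone all 10 members were estimated lower in NLGF, with a median log2 fold change of -1.02 (range -1.85 to -0.69), and among males alone the median was 0.12, with 1 member below 0. Fos stood at 5.56 to 21.2 CPM, median 12.4, in the 5 NLGF females, against 9.89 to 72.4 CPM, median 28.0, in the 5 WT females. In males it stood at 5.69 to 37.2 CPM, median 17.9, in NLGF, against 4.25 to 26.9 CPM, median 14.6, in WT. Egr2 had medians of 3.72 CPM in NLGF females and 8.61 CPM in WT females, and of 5.33 CPM in NLGF males and 2.63 CPM in WT males. The difference between the sexes was tested directly, as an interaction added after the fits of each sex had been seen. Males minus females, it was above 0 for all 10 members at week 8, with a median of 1.12 (0.72 for Fosb to 2.33 for Egr2). None was called (0% of genes), the adjusted p lay between 0.794 and 0.832, and 7 members against 6.14% of genes had an unadjusted p under 0.05. Without WT week 8 female 5 the median was 0.70. At weeks 3 and 24 the medians of this difference were 0.52 and 0.04, again with 0 members called and 0% of genes. The NLGF over WT medians at week 24 were -0.53 in females alone and -0.48 in males alone, with all 10 members below 0 in each.

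All 10 genes varied widely between libraries of the same genotype, week and sex. On the log2(CPM + 0.5) scale the within-group SD was 0.825 for Egr2, 0.816 for Fos, 0.683 for Npas4, 0.563 for Fosb, 0.545 for Arc and 0.537 for Nr4a1. It was 0.51 for Egr1, 0.498 for Dusp1, 0.468 for Junb and 0.466 for Egr4. Over the 14503 genes that averaged 1 CPM or more the median SD was 0.193 and the 90th percentile 0.369. Every member thus lay above the 90th percentile: 94.9% of genes varied less than Egr4, and 99.2% less than Egr2. Over all 60 libraries the highest level was 31.3 times the lowest for Egr2, 17.9 times for Fos and 12.1 times for Npas4, and 5.13 times for Egr4.

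**Figure D3:**
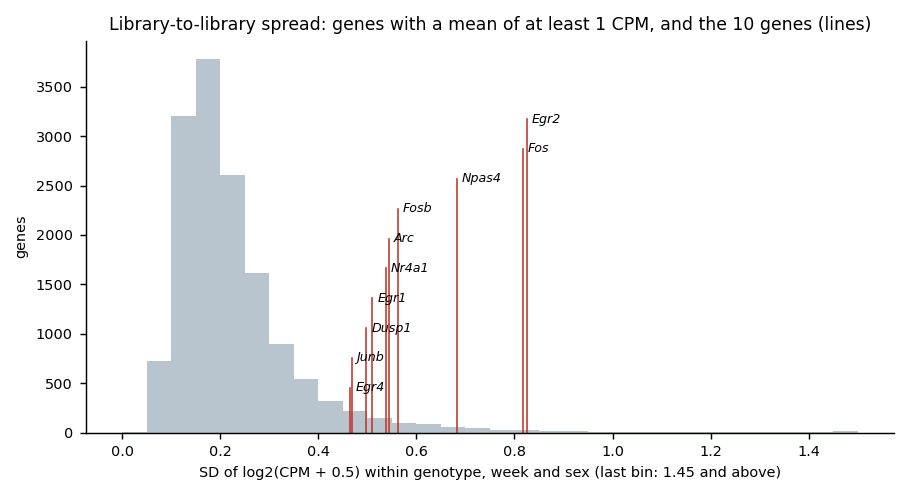
Histogram of the SD of log2(CPM + 0.5) within genotype, week and sex for 14503 genes (x axis, log2 units; y axis, number of genes), with a red line for each of the 10 immediate early genes; line heights carry no value. The 10 lines lie between 0.466 and 0.825, in the right tail of the genes, whose median is 0.193.

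At the 2 later weeks most members had the smaller spread in NLGF. At week 8 the SD was smaller in NLGF than in WT for 9 of 10 members, with member medians of 0.394 in NLGF and 0.761 in WT. At that week 84% of all genes also had the larger SD in WT, with gene medians of 0.147 in NLGF and 0.234 in WT. At week 24 it was smaller in NLGF for 10 of 10 members (medians 0.464 in NLGF and 0.683 in WT), where 54.4% of genes had the larger SD in WT. At week 3 the members divided evenly, 5 of 10, with medians of 0.417 in NLGF and 0.402 in WT. These SDs are described and were not tested.

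Single libraries held the upper end of the range. WT week 8 female 5 held the highest level of its set in 10 of 10 members, with 72.4 CPM of Fos, 569 CPM of Egr1, 597 CPM of Arc and 40.1 CPM of Egr2. Its levels were 2.32 times (Junb) to 7.06 times (Egr2) the median of the other 9 libraries. WT week 24 male 5 was also highest in 10 of 10, with 75.9 CPM of Fos, 527 CPM of Arc and 76.4 CPM of Dusp1, or 2.29 times (Egr4) to 5.04 times (Egr2) the median of the other 9. In NLGF the nearest counterpart was week 8 male 5, highest in 10 of 10 at 1.3 times (Egr4) to 3.51 times (Egr2) the median. WT week 24 male 2 differed from these in that Npas4 stood at 4.68 times the median of the other 9 while the rest of the members began at 1.15 times, for Nr4a1.

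Low libraries were found in both genotypes. WT week 24 male 1 was lowest of its set in 9 of 10 members, with a median of 0.548 times the other 9. WT week 8 female 3 and male 3 stood lower still by this median, at 0.41 and 0.466 times, and were lowest of their set in 6 and 4 members, and in male 3 Fos stood at 4.25 CPM, or 0.17 times the median of the other 9. In NLGF, week 8 female 5 was lowest of its set in 7 of 10 members and week 24 male 1 in 5. Of the 5 lowest sums over the 10 genes in a week, 3 were WT libraries at week 3, 3 at week 8 and 1 at week 24. At week 3 the 10 genes summed to 551 ± 133 CPM in NLGF, against 522 ± 105 CPM in WT (SD, 10 libraries each). At week 8 they summed to 540 ± 147 CPM in NLGF, against 750 ± 454 CPM in WT, and at week 24 to 482 ± 174 CPM in NLGF, against 694 ± 356 CPM in WT. The WT sums had the larger SD at both later weeks. Arc and Egr1 weigh most in all such sums, with means of 192 and 160 CPM over the 60 libraries, against 5.61 CPM for Egr2. Replicate 5 had the highest sum in 6 of the 12 groups of genotype, week and sex, and replicate 1 the lowest in 5. Whether the replicate number marks an order of handling is not given in the sources used here.

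**Figure D4:**
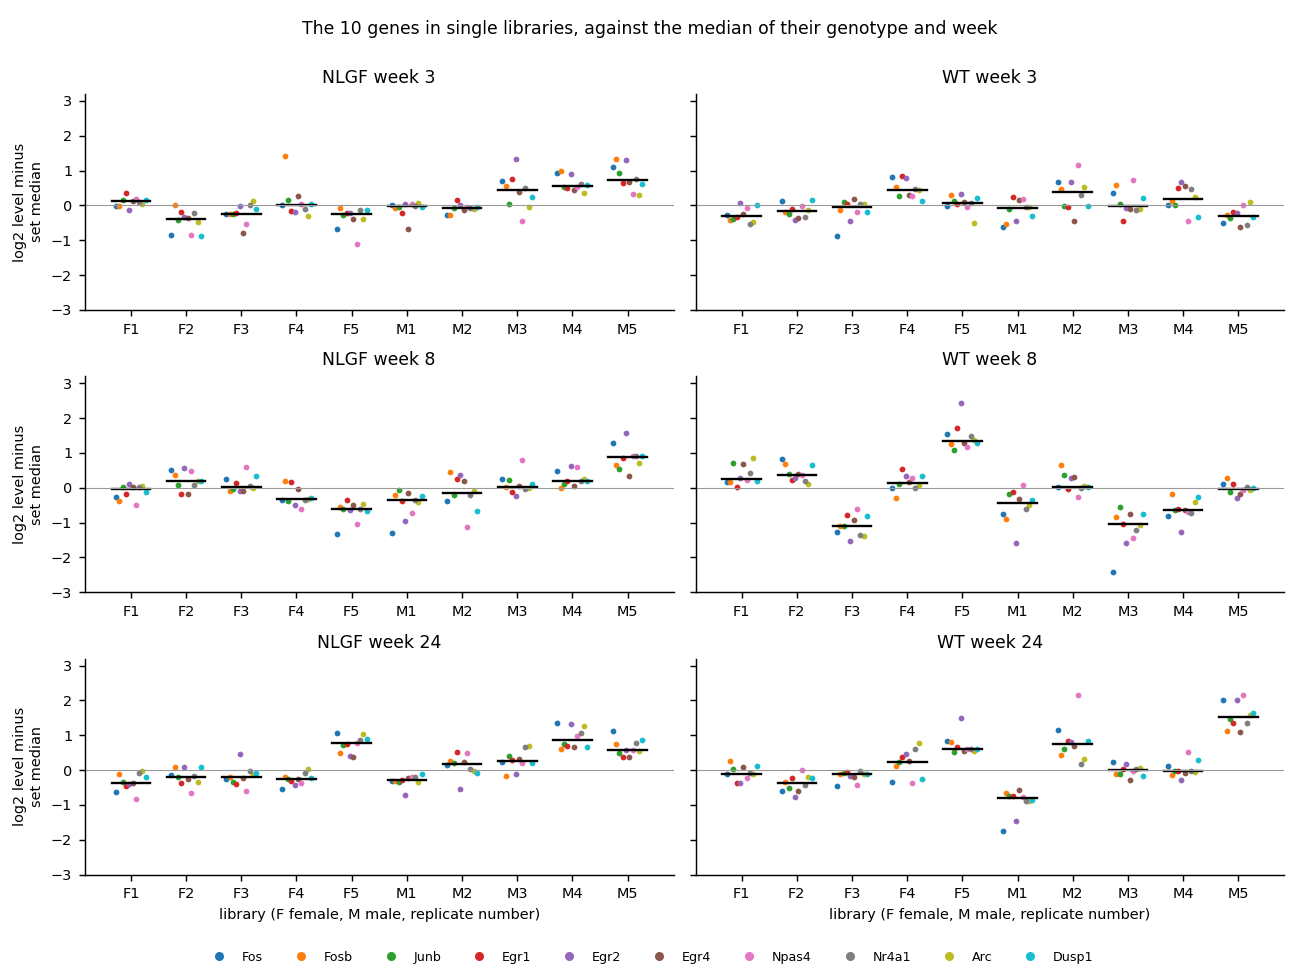
Log2 level of each of the 10 genes (coloured points) in each library minus the median of its set of 10, for the 6 sets with NLGF left of WT; black bars mark the median of the 10 genes in a library, F and M the sex. The points of a library move together, with WT week 8 female 5 and WT week 24 male 5 far above 0 and WT week 8 female 3 and male 3 and WT week 24 male 1 far below.

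The members moved together from library to library. After the mean of each of the 12 groups was subtracted, Fos correlated with each of the 9 others over 60 libraries, with Pearson's r between 0.718 (Egr4, Spearman's rho 0.675) and 0.902 (Dusp1, rho 0.91). In a 2-sided permutation test within the groups with 100000 resamples, p adjusted over the 9 relations was 1e-05 for 8 of them, the smallest the resamples can give, and 2e-05 for Egr1. Without the 2 libraries farthest from the median of Fos, WT week 24 males 1 and 5, r lay between 0.669 and 0.876. It lay between 0.687 and 0.899 in NLGF alone, between 0.736 and 0.909 in WT alone, and between 0.708 and 0.903 without the 7 deep libraries. By week, r lay between 0.383 and 0.772 at week 3, 0.76 and 0.891 at week 8, and 0.855 and 0.962 at week 24. Over all 45 pairs of members r had a median of 0.799. The highest was 0.933, for Arc with Nr4a1, and the lowest 0.563, for Egr4 with Npas4.

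**Figure D5:**
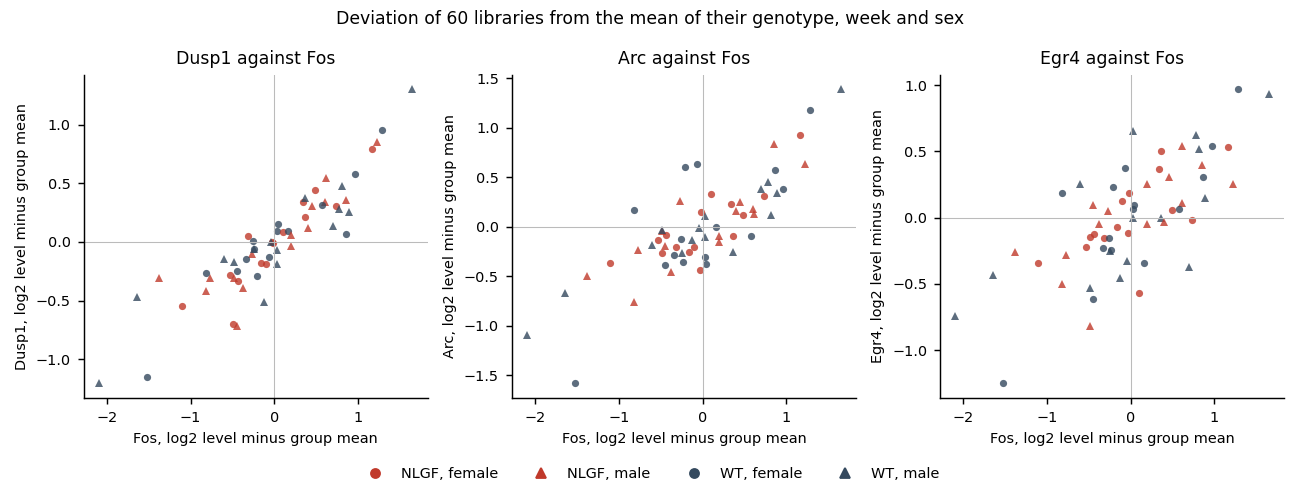
Deviation of Dusp1, Arc and Egr4 (y axes) against that of Fos (x axes) in 60 libraries, each as log2(CPM + 0.5) minus the mean of its genotype, week and sex; NLGF red, WT blue, circles females, triangles males. All 3 clouds rise to the right, most tightly for Dusp1 (r = 0.902) and least for Egr4 (r = 0.718).

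The genes most like the members in their movement between libraries were found by a fixed measure. The mean deviation of the 10 members, each divided by its SD, was set against the 14493 other genes that averaged 1 CPM or more over the 60 libraries, and 8 of them had r above 0.7. Symbols of predicted genes and clones, such as Gm and Rik numbers, were left out of the ranking. The 10 highest of the rest were Trib1 (0.863), Ier2 (0.852), Cyr61 (0.814), Stk40 (0.786), Arl4d (0.77), Btg2 (0.753), Per1 (0.75), Gadd45b (0.729), Sik1 (0.691) and Egr3 (0.684). The same score correlated at r = 0.909 (rho 0.852) with a list of other rapid response genes, over the 18 of 20 that averaged 1 CPM or more. With a list of 20 delayed activity genes r was 0.295 and with 18 upstream regulators 0.289. With the same kind of score over CA field pyramidal markers r was -0.444, with choroid plexus markers -0.38, with glucocorticoid response genes 0.418 and with total count 0.208. It was -0.156 for heat shock genes, -0.158 for dentate granule cell markers, 0.157 for pan-neuronal and 0.0923 for microglial markers. These are descriptions over 60 libraries that differ in depth and in choroid plexus content, and their part in the genotype estimates was not tested.

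In the 2 libraries with the highest sums of the members, the other rapid response genes were also highest of their set. Their summed level was 1010 CPM in WT week 8 female 5, against a median of 699 CPM in the other 9 libraries, and 949 CPM in WT week 24 male 5, against 688 CPM. In WT week 24 male 2, second of its set in the members' sum, they stood at 688 CPM, against 695 CPM in the other 9, and in NLGF week 24 female 2, where the members ranked 9 of 10, at 676 CPM, against 642 CPM. Choroid plexus markers summed to 80.4 CPM in WT week 8 female 5, against 461 CPM, and to 34.4 CPM in WT week 24 male 5, against 606 CPM. In WT week 8 female 3, where the members were low, these markers summed to 5254 CPM, against 344 CPM. WT week 8 male 3, where the members were also low, held 46.4 CPM of choroid plexus markers.

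In other gene lists of the pathway, few genes followed genotype. At week 3, where 3.78% of all genes were called, 1 of 20 other rapid response genes was higher in NLGF. It was Fbxo33 (log2 fold change 0.41, edgeR adjusted p = 0.0438). Among upstream regulators Crebbp, the CREB coactivator (0.225 ± 0.0521), and Mkl2, a serum response factor coactivator (0.24), were called higher in NLGF. Of 10 heat shock genes 1 was lower, Hspd1, a mitochondrial chaperone (-0.29), and of 20 delayed activity genes and 10 glucocorticoid response genes 0 were called. These week 3 calls include the 7 deep NLGF libraries. Without those 7, with 3 NLGF libraries left, 0% of 17187 genes were called, so none of these calls was made there. At week 8 and at week 24, 0 genes of these 5 lists were called, against 0% and 0.878% of all genes. The other rapid response genes had 16 of 20 estimates below 0 at week 8 and 15 of 20 at week 24, both with a median of -0.18, smaller in size than the members' medians. Of the microglial markers 6 of 8 were called higher in NLGF at week 24, against 0.878% of all genes called in either direction. Their summed levels were 423 ± 31.4 CPM in NLGF, against 320 ± 15.8 CPM in WT. Dentate granule cell markers had 10 of 10 estimates above 0 at each week, with medians of 0.21, 0.13 and 0.32 at weeks 3, 8 and 24 and 0 called.

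With age, some genes of the 2 activity lists were called. For week 24 over week 3 the shares were no larger than that of all genes, except among delayed genes in NLGF. For week 24 over week 8, 1 of 20 delayed genes was called in WT (0.279% of all genes), Inhba, lower (-0.62). In NLGF 2 of 20 were called for that span (1.90% of all genes), Dusp6 (-0.25) and Vgf (-0.37), both lower. In WT at week 24 over week 3, 2 of 20 rapid response genes were called (21.9% of all genes), Fbxo33 (0.71) and Nr4a2 (0.56), a relative of Nr4a1, both higher. Of 20 delayed genes 3 were called: Nptx2, a synaptic pentraxin, fell by 0.76 on the log2 scale and Inhba, an activin subunit, fell by 0.54, while Nefm, a neurofilament subunit, rose by 0.46. In NLGF over the same span, 4 of 20 rapid response genes were called (25.7% of all genes), Fbxo33 higher (0.30) and Egr3 (-0.28), Nr4a3 (-0.35) and Klf4 (-0.39) lower. Of 20 delayed genes 5 were called lower and 2 higher in NLGF. The 4 of smallest p were Nptx2 (-0.85), Gpr3 (-0.51), Spry4 (-0.36) and Dusp6 (-0.30), a cytoplasmic MAP kinase phosphatase, over a span that includes the 7 deep week 3 libraries.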

How the data were processed

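Per the labels' protocols, ribosomal RNA was depleted from total RNA of fresh frozen hippocampus to make the 60 libraries. The authors deposited raw gene counts with 1 column per library. The submitters' processing notes name mm10 as the genome build and FastQC, STAR, DESeq2 and edgeR as tools, with no version. Which program counted reads, with which annotation and strand setting, is not given in the sources used here. A second deposited table lists the genes the authors called, and per the file headers it holds a mean of normalized counts (a signal value), a log2 fold change, its standard error (recorded as a score), and unadjusted and adjusted p-values. It was used only to look the members up.

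The 10 members and all gene lists were chosen with earlier results of these data known. In R 4.3.3, counts were filtered with filterByExpr (minimum count 10), TMM-scaled and tested with the robust 2-sided quasi-likelihood F-test of edgeR 4.0.16, with sex as a covariate and Benjamini-Hochberg adjustment over all genes tested. Genotypes were compared within each week on its 20 libraries, ages within each genotype on its 30, and genotype effects between weeks on all 60. Each standard error is the fold change over the root of its F statistic. Levels are given in CPM, as mean ± SD or as lowest, median and highest; deviations use log2(CPM + 0.5), with a pseudocount of 0.5. The text names all 10 members, App, and from each other list up to 4 called genes per comparison by smallest p. It also names the 10 genes most correlated with the members, with symbols of predicted genes and clones left out. Alternatives used limma 3.58.1 (voom with sample quality weights), DESeq2 1.42.0 and sva 3.50.0, other filters and scalings, and libraries left out. The fits were tested on simulated data first. Exon lengths and gene positions come from GENCODE M21 and promoters from RefSeq GRCm38.p6, both of the mm10 assembly. No promoter sequence is shown for Arc and Egr1. The result of 1 gene in the list of upstream regulators is not reported here.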

Additional observations from a re-analysis of the deposited data

Results flagged for a closer look

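In each group of 5 libraries of 1 genotype, week and sex, a member was listed here when its highest or lowest library stood apart from the nearest of the others by more than Dixon's 95% critical value. Chance alone lists about 1 in 20 groups when values are normally distributed. The rule was applied to CPM without a log, so that rate may not hold here. Of the 120 groups examined (10 genes in 12 groups), 14 were listed, each for its highest library. Since the members move together, these are not separate events.

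NLGF week 24 female 5 gave 8 of the 14. In that library Fos stood at 26.5 CPM (the next NLGF female of that week at 11.3 CPM), Junb at 81.0 CPM (42.7), Arc at 242 CPM (120) and Egr1 at 193 CPM (92.0). Egr4 stood at 30.9 CPM (20.2), Npas4 at 21.6 CPM (9.45), Nr4a1 at 80.2 CPM (43.4) and Dusp1 at 32.1 CPM (18.3). Without this library the median log2 fold change of NLGF over WT at week 24 was -0.68, and Egr1 was called lower at week 24 than at week 3 in NLGF.

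The others were spread over 6 libraries. Fosb stood at 19.99 CPM in NLGF week 3 female 4 (next 7.36 CPM), a library whose other members were not set apart. Egr1 stood at 180 CPM in NLGF week 3 female 1 (next 126 CPM) and at 232 CPM in WT week 3 female 4 (next 134 CPM). Egr2 stood at 40.1 CPM in WT week 8 female 5 (next 9.03 CPM), Fos at 33.4 CPM in WT week 24 female 5 (next 17.2 CPM), and Arc at 527 CPM in WT week 24 male 5 (next 218 CPM).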

How the results depend on the processing

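No alternative scaling, filter or tool called a member between the genotypes at week 3, 8 or 24, with 1 exception at week 3: without the 3 other NLGF libraries, a choice made after the data were seen, 1 member was called (Egr4; 21.5% of all genes). For the genotype effect at week 24 minus week 3, voom called 1 (Egr4, -0.92, adjusted p = 0.0316, with 8.39% of all genes called). Leaving out 1 library gave 0 to 1 members (124 to 538 genes in all). For WT week 24 over week 3, DESeq2, a filter of 1 CPM in 10 libraries and a fit with no sex term each called 2 members, Npas4 and Dusp1. These settings called 24.3%, 24.3% and 21.5% of all genes. No filter and voom called 0 members (10.7% and 30.6% of all genes). Leaving out 1 library gave 0 to 2 members (3118 to 4364 genes in all). For NLGF week 24 over week 8, voom called 1 (Egr4; 4.49% of all genes). For NLGF week 24 over week 3, voom called 2 (Egr1 and Egr4, with 28.8% of all genes). Leaving out 1 library gave 1 to 2 members (3980 to 4538 genes in all). Without the 7 deep libraries 0 members were called (28% of all genes) and Egr4 reversed to 0.074. The cause of these changes was not tested. Medians near 0 changed sign when 1 library was left out: -0.03 to 0.14 for the genotypes at week 3, -0.32 to 0.15 for WT week 24 over week 8, -0.02 to 0.15 for NLGF week 8 over week 3, -0.16 to 0.04 for NLGF week 24 over week 3, and -0.15 to 0.45 for males minus females at week 24. Whether replicate numbers pair the libraries of the 2 genotypes was not tested. Same-numbered libraries deviated together (r above 0.1) in 13 of 30 pairs, with a median r of 0.06. At week 24 r lay between -0.09 (female 2) and 0.58 (female 3). With the replicate block, 1 member was called for WT week 24 over week 3 (19.5% of all genes). For NLGF week 24 over week 3 it also called 1 member (24.5% of all genes). In every other comparison it called 0 members, where 0% to 9.71% of all genes were called. The genotype medians with this block were -0.31 at week 8 and -0.47 at week 24. The lowest count of a member in any library was 29 reads. Standard errors at week 8 lay between 0.225 (Junb) and 0.554 (Egr2) on the log2 scale.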
